A study of Mus musculus with 5 samples.

Results

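Cubilin, megalin and the proteins that anchor, fold, connect and sustain them were followed here through 6 genes: Cubn, Amn, Lrp2, Dab2, Lrpap1 and Clcn5. The members are all probe sets that the platform annotation pairs with 1 of these symbols and no other, which gave 15 of the 22626 probe sets that are not controls, and 6 of the 12393 genes on the array. Where a gene had several probe sets, the brightest stands for the gene, by the mean of log2(signal + 16) across the 5 arrays. The study hybridised RNA from mouse embryos of gestation day 9.5 to 5 one-colour Affymetrix arrays of the Mouse Genome 430A design. The Folr1-/- group has 2 arrays, from embryos homozygous for a knockout allele of the folate receptor gene Folr1, and the Folr1+/+ group has 3 arrays from wild-type embryos. Both are labelled whole embryo, strain C57BL6J and biological replicates.

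The knockout is present in every cell of the embryo. Folr1-/- embryos came from intercrosses of Folr1+/- mice whose dams ate a diet with added folate from before mating through gestation. What the dams of Folr1+/+ embryos ate has no statement of its own in the protocol, and if it was another diet, its effect and that of the genotype cannot be told apart. Decidua, chorion and amnion were dissected away, and the yolk sac is not mentioned. The labels do not say if embryos were pooled. The p-values measure the spread between these arrays.

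Cubilin is a large receptor at the apical surface of absorptive epithelia that has no membrane anchor of its own. It reaches the surface bound to amnionless, the product of Amn, and takes up cobalamin bound to intrinsic factor, apolipoprotein A-I, albumin and transferrin. Megalin, the product of Lrp2 and a member of the LDL receptor family, spans the membrane and takes up lipoproteins and the carriers of retinol, vitamin D and cobalamin, often together with cubilin. In the mouse both are abundant in the visceral endoderm of the yolk sac, the layer that feeds the embryo before the placenta works, and megalin is also found on the apical side of the neuroepithelium, where its loss disturbs forebrain development.

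The promoter windows of 4 members are shown because Cubn and Amn make 1 receptor and had nearly the same fold change, whereas Lrp2 and Dab2 had smaller ones. They come from RefSeq on build GRCm38.p6 and run from 250 bases before the annotated start to 50 bases after it, 5′ to 3′ on the gene's strand, with each CG dinucleotide in capitals. The window of Cubn is chr2:13491827-13492126 on the minus strand, that of Amn chr12:111270846-111271145 on the plus strand, that of Lrp2 chr2:69585980-69586279 on the minus strand and the upstream one of 2 Dab2 windows chr15:6299539-6299838 on the plus strand.
Cubn: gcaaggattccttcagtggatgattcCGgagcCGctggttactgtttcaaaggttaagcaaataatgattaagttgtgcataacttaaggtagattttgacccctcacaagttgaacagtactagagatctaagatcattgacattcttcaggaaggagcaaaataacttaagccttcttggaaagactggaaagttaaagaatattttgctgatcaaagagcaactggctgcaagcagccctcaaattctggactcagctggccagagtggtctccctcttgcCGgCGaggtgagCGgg
Amn: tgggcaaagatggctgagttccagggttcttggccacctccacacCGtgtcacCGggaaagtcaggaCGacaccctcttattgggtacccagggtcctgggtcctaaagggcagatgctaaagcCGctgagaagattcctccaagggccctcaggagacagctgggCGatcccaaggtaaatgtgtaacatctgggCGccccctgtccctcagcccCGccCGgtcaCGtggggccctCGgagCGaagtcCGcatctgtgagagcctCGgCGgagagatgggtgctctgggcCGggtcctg
Lrp2: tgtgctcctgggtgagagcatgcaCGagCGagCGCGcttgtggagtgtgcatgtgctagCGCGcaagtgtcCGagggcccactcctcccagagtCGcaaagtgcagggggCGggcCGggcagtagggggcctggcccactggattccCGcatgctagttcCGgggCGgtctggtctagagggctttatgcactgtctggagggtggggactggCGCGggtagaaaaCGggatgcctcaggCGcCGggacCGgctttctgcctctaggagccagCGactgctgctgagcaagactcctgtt
Dab2: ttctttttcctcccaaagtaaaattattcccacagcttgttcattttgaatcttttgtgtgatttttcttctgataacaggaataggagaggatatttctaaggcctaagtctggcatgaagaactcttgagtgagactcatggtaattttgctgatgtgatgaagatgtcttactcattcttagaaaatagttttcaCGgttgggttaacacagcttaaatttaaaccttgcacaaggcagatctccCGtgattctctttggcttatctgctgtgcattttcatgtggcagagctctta
The Cubn window held 5 CG dinucleotides and the Amn window 15, against 20 in the Lrp2 window, 2 in the Dab2 window shown, 19 in the other Dab2 window and a median of 7 over 32851 promoter windows of this length. Cubn and Amn thus have like fold changes and unlike base composition, with 44.3% and 62.3% G or C. On both strands 6 short motifs were searched, which are core letters bound by factors known from endoderm: AGATAA and TGATAA for GATA factors, GTTAAT for HNF1, TGTTTAC and TATTTAC for forkhead factors and AAAGTCC for HNF4. The GATA pair shares its last 5 letters and the forkhead pair its last 5, but no stretch matches both motifs of a pair. None of the 6 was found in the windows of Cubn, Amn, Lrp2, Lrpap1 or the 2 windows of Clcn5. Dab2 had TGATAA starting 179 bases before its upstream start, AGATAA on the opposite strand beginning at base 15 after that start, and GTTAAT starting 65 bases before its other start. Of all windows 11.2% held AGATAA, 9.05% TGATAA, 7.10% GTTAAT, 3.65% TGTTTAC, 3.04% TATTTAC and 4.21% AAAGTCC.

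The state of the arrays bears on every result below. Over all probe sets the log2 signals of the arrays correlated at 0.984 within the Folr1-/- group, 0.973 to 0.982 within the Folr1+/+ group and 0.954 to 0.970 between the groups. Folr1 itself had signals of 50.2 and 41.8 in Folr1-/- embryos and 57.0, 50.01 and 40.2 in Folr1+/+ embryos, so its probe set did not separate the groups. The stretch of the gene that the allele lacks is not stated, and this probe set does not check the labels. Xist, the RNA that coats the inactive X chromosome in females, measured 419 and 770.4 in Folr1-/- embryos, against 25.0 to 35.7 in Folr1+/+ embryos. Among genes of the Y chromosome, Eif2s3y measured 104 and 3.13 in Folr1-/- embryos against 300.3 to 372 in Folr1+/+ embryos, and Kdm5d 25.2 and 0.796 against 89.5 to 120.5, so that Folr1-/- replicate 1 carried both Xist and Y-linked signal. Sex-linked expression and genotype therefore cannot be told apart, and Clcn5 lies on the X chromosome.

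All 6 members passed the filter on dim genes, and 5 of them rose in Folr1-/- embryos, 0 fell and Clcn5 did not pass (limma, Benjamini-Hochberg adjusted p under 0.05 over 7436 genes). Of all genes tested 15% passed in either direction, made up of 8.19% higher and 6.79% lower. The groups were apart, with Folr1-/- higher, for the same 5 members, beside 22.5% of all genes tested in that direction and 46.7% in either. The median log2 fold change of the members was 1.77, against -0.02 over all genes tested. Without Folr1-/- replicate 1 the log2 fold changes were 2.59 for Cubn, 2.07 for Amn, 1.09 for Lrp2, 1.54 for Dab2, 2.03 for Lrpap1 and 0.60 for Clcn5. The members' count was then also 5, while 369 of all genes passed in place of 1114. Without Folr1-/- replicate 2 it was 4, when Lrp2 no longer passed, and 664 of all genes did. The same arrays differed in markers of the visceral endoderm, which are given further on, and in whole embryos more cells of a type and more RNA per cell cannot be told apart.

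**Figure D1:**
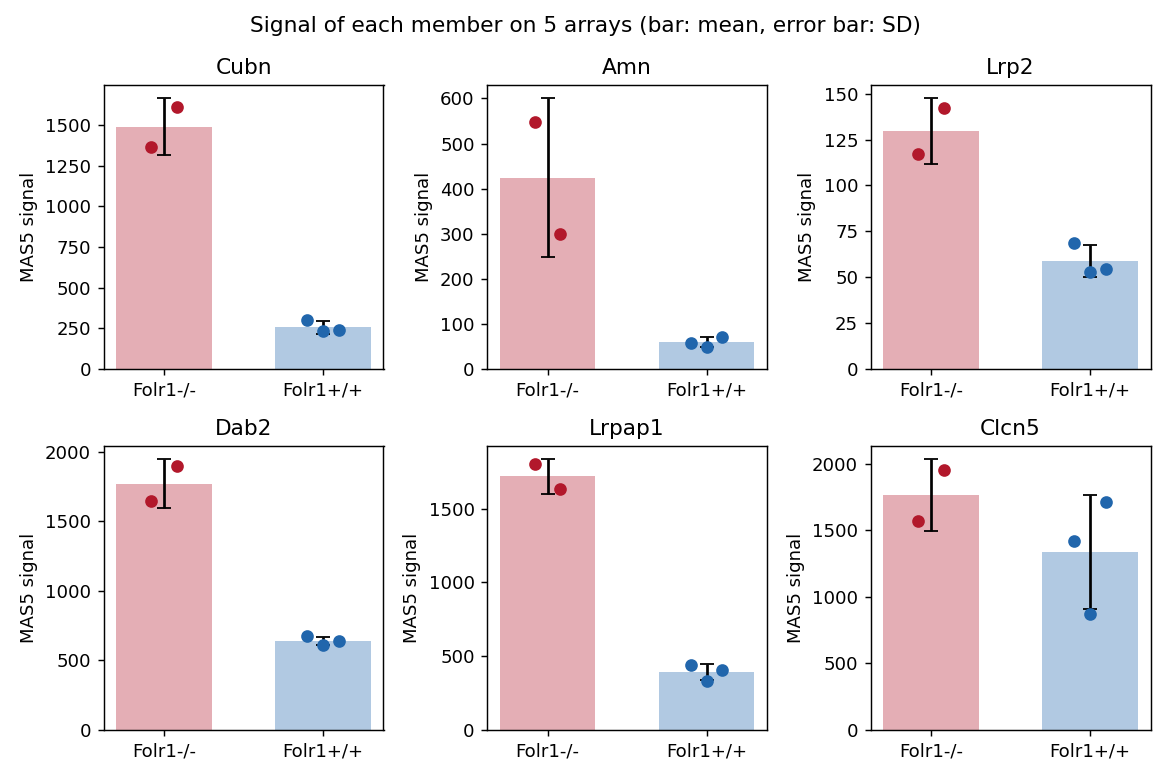
MAS5 signal (linear axis, arbitrary units) of the representative probe set of each member, with 1 point per array, bars at the group mean and error bars of 1 SD for 2 Folr1-/- and 3 Folr1+/+ arrays. The groups are apart for Cubn, Amn, Lrp2, Dab2 and Lrpap1, and overlap for Clcn5, where the lower Folr1-/- array at 1573 lies below a Folr1+/+ array at 1712.

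Among the receptors, Cubn (gene on chromosome 2, 13276338 to 13491876, build GRCm38.p6) had signals of 1367 and 1614 in Folr1-/- embryos and 303, 231 and 237 in Folr1+/+ embryos. Both Folr1-/- arrays were high, and the lower of them was 4.51 times the highest Folr1+/+ array. The means were 1490.3 ± 175 (SD, n = 2) and 257 ± 40.0 (SD, n = 3), which gave 2.47 ± 0.17 (SE) as the log2 fold change (limma adjusted p = 5.0e-06). The other Cubn probe set had 490.4 and 565 in Folr1-/- embryos and 134, 93.2 and 78.4 in Folr1+/+ embryos, a log2 fold change of 2.23 ± 0.21. Both probe sets thus measured a difference of similar size, 5.796 and 5.178 times in the mean signals. In the order of fold changes over all genes tested Cubn stood at place 15 from the top.

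Amn, which encodes the membrane anchor of cubilin (chromosome 12, 111271096 to 111276426), had signals of 548 and 299 in Folr1-/- embryos and 57.4, 49.7 and 71.5 in Folr1+/+ embryos. The Folr1-/- arrays were both high but differed between themselves by 1.83 times, more than for any other member, with replicate 1 the higher one. For Cubn the order of these arrays was the other way round. The means were 424 ± 176 (SD, n = 2) and 59.5 ± 11.03 (SD, n = 3), a log2 fold change of 2.49 ± 0.24 (SE) with an adjusted p of 5.2e-05, at place 13 of all genes tested. It was 2.07 with replicate 2 as the only Folr1-/- array and 2.91 with replicate 1 alone. Amn had 1 probe set.

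Lrp2, the megalin gene (chromosome 2, 69424335 to 69586029), had signals of 117 and 142 in Folr1-/- embryos and 68.6, 52.9 and 54.7 in Folr1+/+ embryos. The groups did not overlap, although the lower Folr1-/- array was only 1.71 times the highest Folr1+/+ array. The means were 129.7 ± 17.8 (SD, n = 2) and 58.7 ± 8.63 (SD, n = 3), with a log2 fold change of 0.96 ± 0.19 (SE) and an adjusted p of 0.0057, at place 265 of all genes tested. Its other probe set had 78.5 and 83.7 in Folr1-/- embryos and 54.7, 55.8 and 57.7 in Folr1+/+ embryos. There the groups were also apart, but the log2 fold change of 0.43 ± 0.18 did not pass (adjusted p = 0.15 over all probe sets tested). Without Folr1-/- replicate 2 the representative probe set did not pass either, at 0.84 (limma adjusted p = 0.075), and over all alternatives in which Lrp2 was tested its adjusted p ranged from 0.0028 to 0.075.

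Dab2 encodes a clathrin adaptor that binds the cytoplasmic tail of megalin and is needed for its uptake in the visceral endoderm (chromosome 15, 6299788 to 6440715). Its signals were 1644 and 1895 in Folr1-/- embryos and 671, 610.2 and 637 in Folr1+/+ embryos, with little spread within either group. The means were 1769.7 ± 177 (SD, n = 2) and 639.7 ± 30.7 (SD, n = 3). Dab2 rose by 1.44 ± 0.14 (SE) on the log2 scale, with an adjusted p of 5.9e-05. Its next brightest probe set had 650.4 and 756 in Folr1-/- embryos and 215, 307 and 222 in Folr1+/+ embryos, giving 1.46 ± 0.18, nearly the same fold change. The third and dimmest probe set had 46.6 and 42.9 against 25.0, 23.7 and 25.6 in Folr1+/+ embryos. Its log2 fold change of 0.57 ± 0.20 did not pass (adjusted p = 0.088 over all probe sets tested), at signals near the pseudocount of 16, which makes a fold change look smaller. Without a pseudocount the ratio of its mean signals was also smaller, at 1.81, against 2.77 and 2.84 for the brighter probe sets.

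Lrpap1 encodes the receptor-associated protein, a chaperone of the endoplasmic reticulum that keeps ligands off megalin and its relatives while they fold (chromosome 5, 35091490 to 35105699). Its signals were 1800.4 and 1636 in Folr1-/- embryos and 436, 332 and 403 in Folr1+/+ embryos. The Folr1-/- arrays were both more than 3 times as bright as any Folr1+/+ array, with means of 1718 ± 117 (SD, n = 2) and 390.5 ± 53.3 (SD, n = 3). Lrpap1 rose by 2.10 ± 0.16 (SE) on the log2 scale with an adjusted p of 9.3e-06, at place 30 of all genes tested. All 4 Lrpap1 probe sets passed, but their fold changes differed: 2.10 for the brightest, then 1.73 ± 0.17, 1.23 ± 0.17 and 0.79 ± 0.18 in order of brightness. The last 3 are annotated to the same transcript record and still gave ratios of mean signals of 3.60, 2.50 and 1.82, so the size of the Lrpap1 difference depends on the probe set, while its direction does not.

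Clcn5 encodes an endosomal chloride and proton exchanger that supports the acidification of vesicles filled by cubilin and megalin, and whose loss in humans causes leakage of protein into urine (X chromosome, 7153810 to 7319358). Its representative probe set had signals of 1573 and 1955 in Folr1-/- embryos and 1420.4, 868 and 1712 in Folr1+/+ embryos. The groups overlapped, and the log2 fold change of 0.45 ± 0.24 (SE) had an adjusted p of 0.23. Its ID ends in x_at, which marks probes that can also match other transcripts. The remaining probe sets had 449 and 393 against 287, 321 and 286 in Folr1+/+ embryos, and 68.9 and 81.0 against 47.9, 44.9 and 40.1. In both the groups were apart, and the log2 fold changes of 0.47 ± 0.16 and 0.59 ± 0.19 came close to the threshold without passing (adjusted p = 0.077 and 0.069 over all probe sets tested). With the mean log2 value of its 3 probe sets in place of the brightest one, Clcn5 passed, at 0.50 (adjusted p = 0.043, range over all alternatives 0.043 to 0.62), whereas the brightest gave 0.17 without Folr1+/+ replicate 2. Xist and the Y-linked genes separated these arrays too, and the part of sex-linked expression in the Clcn5 values was not tested.

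**Figure D2:**
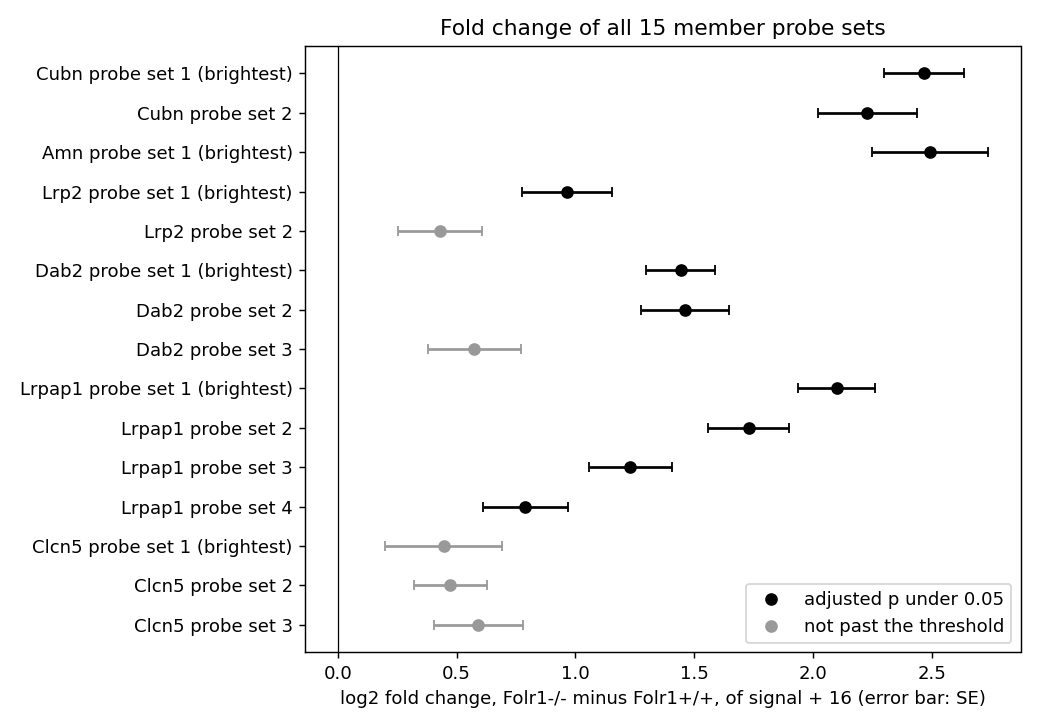
Log2 fold change (Folr1-/- minus Folr1+/+, of signal + 16) of each of the 15 member probe sets, ordered by gene and, within a gene, with the representative probe set on top; error bars are 1 SE and grey points did not pass. All 15 points lie right of 0, from 0.43 for the second Lrp2 probe set to 2.49 for Amn.

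Over the probe sets, 15 of 15 were tested and had a positive fold change, 10 passed and 5 did not, in a fit of 13576 probe sets of which 6.12% passed in this direction. The groups were apart with Folr1-/- higher in 14 of the 15, against 20.5% of all probe sets tested. The 5 that did not pass were the 3 of Clcn5 and the dimmer or dimmest ones of Lrp2 and Dab2. The representative probe sets of Cubn and Lrp2 have IDs ending in s_at, and those of Dab2 and Lrpap1 in a_at. Whether they also match other transcripts was not tested.

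Fold changes of the members were set against each other within each array, as the log2 difference between a pair of genes, in 6 pairs. With 2 against 3 arrays the exact permutation test has 10 splits and cannot give a p below 0.1, or 0.12 once adjusted over these pairs. Lrp2 minus Cubn was -3.38 and -3.36 in Folr1-/- embryos and -1.92, -1.84 and -1.84 in Folr1+/+ embryos. The shift of -1.504 is far larger than the spread within either group (SD 0.01 and 0.04), and p was the smallest the design allows (0.1, 2-sided exact permutation test, 0.12 adjusted). Against Amn the shift of Lrp2 was -1.53, also without overlap, with -0.98 once Folr1-/- replicate 1 was left out and -2.07 once Folr1-/- replicate 2 was. Dab2 minus Cubn shifted by -1.03, Dab2 minus Lrp2 by 0.48, and Lrpap1 minus Lrp2, the gene of its client, by 1.14, each time without overlap between the groups and with the same p. With a pseudocount of 64 Dab2 minus Lrp2 was 0.72. Amn and Cubn differed in shift by 0.02, with Folr1-/- values of -1.29 and -2.37 on both sides of the Folr1+/+ mean of -1.85 (exact permutation p = 1). The SD of 0.76 between the Folr1-/- arrays leaves the relation of the 2 subunits of the receptor imprecise, and the sign of their shift turned without Folr1-/- replicate 1 (-0.51), Folr1+/+ replicate 1 (-0.11) or Folr1+/+ replicate 2 (-0.0037) and with a pseudocount of 64 (-0.34).

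The visceral endoderm was followed through 17 marker genes on the array, none of them a member. Of these 17 of 17 rose, beside 8.19% of all genes tested, with a median log2 fold change of 2.28. Their summed signal was 17025 and 17050.2 in Folr1-/- embryos and 2620.1 to 3667 in Folr1+/+ embryos. Apoa2 was under the filter limit of about 30.0 on all Folr1+/+ arrays. It was tested only through its Folr1-/- signals, which fixed its direction. Apoa4, Apom, Ctsh and Apoa1, which encode apolipoproteins and a lysosomal protease, had the largest fold changes, at 3.18 ± 0.19, 2.85 ± 0.16, 2.81 ± 0.15 and 2.61 ± 0.28 (SE). Measured within each array against the mean log2 signal of these markers, whose own difference was 2.06, Lrpap1 had values of 1.82 and 1.78 in Folr1-/- embryos, within the 1.72, 1.72 and 1.86 of Folr1+/+ embryos. Its shift of 0.04 was -0.15 with a pseudocount of 1 and -0.35 with the mean of its probe sets. Cubn stood higher relative to the markers by 0.40, without overlap of the groups, and Amn by 0.43, with overlap. Without Folr1-/- replicate 1 these shifts were 0.57 for Cubn and 0.06 for Amn, and without Folr1-/- replicate 2 they were 0.24 and 0.80. Lrp2 stood lower relative to the markers by a shift of -1.10, Dab2 by -0.62 and Clcn5 by -1.62, all without overlap. The shift of Dab2 was -0.29 with a pseudocount of 64. For Cubn, Lrp2, Dab2 and Clcn5 the exact permutation p was 0.1, the smallest possible, and 0.15 adjusted over the 6 members, so that none passed. For Amn it was 0.4 and for Lrpap1 0.6. The part of the endoderm content in the members' differences was not tested beyond these values.

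**Figure D3:**
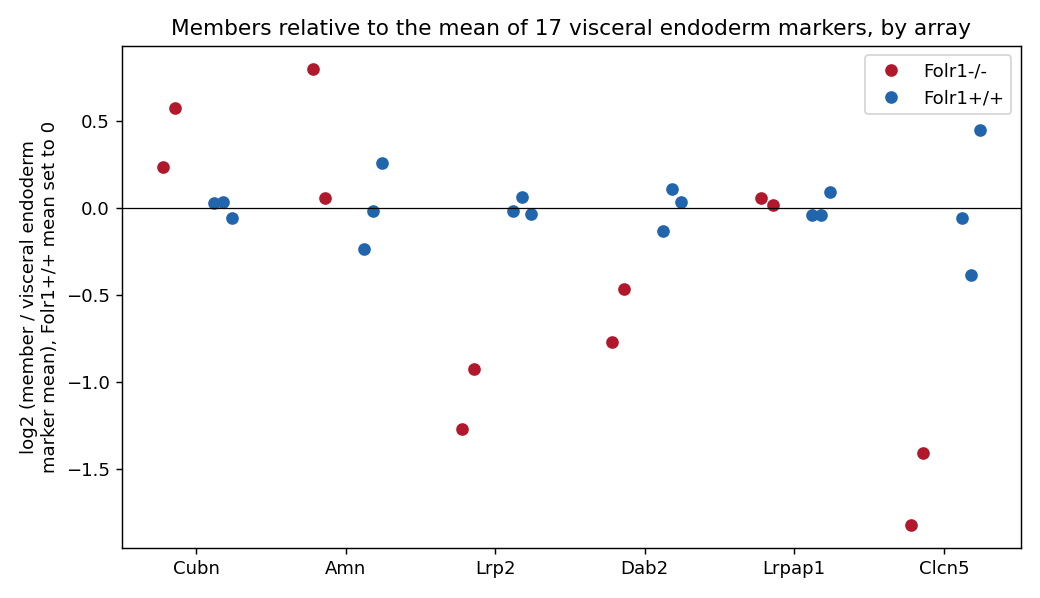
Log2 ratio of each member to the mean of 17 visceral endoderm markers on the same array, shifted so that the mean of the Folr1+/+ arrays is 0, with 1 point per array (red Folr1-/-, blue Folr1+/+). Lrp2, Dab2 and Clcn5 lie below 0 on both Folr1-/- arrays, Cubn above it, and Lrpap1 close to it.

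Markers of other cell types moved on the same arrays, where 8.19% of all genes tested rose and 6.79% fell. Neuroepithelium, where megalin is also made, had 7 of 8 tested genes lower, 0 higher and a median of -1.54, with a summed signal over 10 genes of 334 and 373 in Folr1-/- embryos and 1284 to 1339 in Folr1+/+ embryos. Zic1 and Hes5, a transcription factor gene and a Notch target gene of neural progenitors, had the largest falls in this list, at -2.82 ± 0.19 and -2.17 ± 0.21, or -1.61 and -1.34 with a pseudocount of 64. Zic1, Hes5 and Pax6 were under the filter limit of about 30.0 on both Folr1-/- arrays. They were tested only through their Folr1+/+ signals, which fixed their direction. Primitive erythroid genes fell in 6 of 7 with a median of -2.21, and summed to 200.2 and 614 against 5380.3 to 6318 in Folr1+/+ embryos. Of those that fell, Hba-x, Slc4a1, Klf1 and Alas2 were under the same limit on both Folr1-/- arrays, which likewise fixed their direction. Trophoblast and decidua genes rose in 3 of 3 tested, Plac1 by 1.30 ± 0.16, and the 8 on the array summed to 578 and 476 against 216 to 248, with Tpbpa, Psg23 and Ctsq at 15.8 or less on all arrays. Also too dim to test were Ascl2, with 20.9 and 16.2 against 3.50, 21.6 and 8.52, and Elf5, with 9.80 and 25.8 against 24.4, 34.6 and 21.0. In both the groups overlapped, and the mean of Elf5 was lower in Folr1-/- embryos. Prl8a2 had 143 and 34.6 against 15.3, 13.6 and 23.2, and passed the filter only through its Folr1-/- signals. Of the other calls in that list, Prl8a2 (1.44) did not pass without any 1 of Folr1+/+ replicates 1, 2 and 3 (1.40, 1.36 and 1.56) or Folr1-/- replicate 1 (0.61), and Hand1 (0.78) did not without Folr1+/+ replicate 3 (0.72) or either Folr1-/- replicate (0.71 and 0.85) or with the mean of its probe sets (0.41). Of the kidney and gut epithelium genes 1 of 2 rose, the intestinal transcription factor gene Cdx2 (0.89 ± 0.23), which did not pass without Folr1-/- replicate 2 (0.61) or Folr1+/+ replicate 2 (0.73) or 3 (0.84) or with the mean of its probe sets (0.36). Of the macrophage genes 0 of 2 passed with limma, and 1 of them, Csf1r at 0.56 ± 0.20, had an unadjusted p under 0.05. The sums of 157 and 159 lay within the Folr1+/+ range of 138 to 168. The part of these cell types in the members' differences was not tested.

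Relatives of megalin did not move as a group. Of 10 members of the list of LDL receptor family and sorting receptor genes on the array 6 were tested, of which 1 rose, 1 fell and 4 did not pass, with a median log2 fold change of 0.15. The shares over all genes tested were 8.19% higher and 6.79% lower. Sorl1, a sorting receptor with LDL receptor repeats, had signals of 69.4 and 101.1 in Folr1-/- embryos and 22.5, 56.8 and 30.1 in Folr1+/+ embryos, a log2 fold change of 0.98 ± 0.27 (adjusted p = 0.031). Sort1, which encodes sortilin and belongs to the related sorting receptors without such repeats, had 281 and 284 against 389, 490.5 and 377, a log2 fold change of -0.53 ± 0.16 (adjusted p = 0.047). The call of Sorl1 was lost without Folr1-/- replicate 1 (1.21), Folr1-/- replicate 2 (0.76), Folr1+/+ replicate 1 (0.79) or Folr1+/+ replicate 3 (0.92), and that of Sort1 without any 1 of the 5 arrays (-0.60 to -0.42). With the mean of its probe sets Sorl1 had 0.48 and Sort1 -0.23, and neither passed. Lrp1, another very large receptor of the family, had a log2 fold change of 0.01. Lrp1b, Lrp4, Lrp5 and Lrp8 were too dim to test, with group means of at most 17.6 in Folr1-/- embryos and 31.4 in Folr1+/+ embryos.

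The clathrin coat and its cargo adaptors were followed in 21 genes on the array. Of 19 tested 2 rose, 0 fell and 17 did not pass (median 0.06), beside 8.19% of all genes tested that rose and 6.79% that fell. The 2 were Gipc2, a PDZ protein of the GIPC family, and Myo6, a motor that walks inward along the actin of microvilli and carries apical endocytic vesicles. Gipc2 had signals of 315 and 435 in Folr1-/- embryos and 100.6, 71.5 and 89.8 in Folr1+/+ embryos, a log2 fold change of 1.91 ± 0.20 (adjusted p = 7.3e-05). Myo6 had 113 and 119 against 39.2, 45.0 and 25.4, with no overlap and a log2 fold change of 1.34 ± 0.21 (adjusted p = 0.0014), which was 0.84 with a pseudocount of 64 and 0.88 with the mean of its probe sets. General coat and AP-2 genes such as Cltc (0.48), Ap2m1 (0.20) and Ap2a1 (0.06) did not pass. Cltc came close to the threshold (limma adjusted p = 0.053). The groups were apart for 6 of the 19 tested, beside 46.7% of all genes tested in either direction. Besides Gipc2 and Myo6 these were Cltc and Clta (0.35), with Folr1-/- higher, and Ap2b1 (-0.38) and Dab1 (-0.46), with Folr1-/- lower.

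In the list of endosome traffic and acidification 4 of 16 tested genes rose and 0 fell (median 0.23), beside 8.19% and 6.79% of all genes tested. Ehd1, which drives recycling from endosomes, had signals of 539 and 573 in Folr1-/- embryos and 317, 278 and 320.4 in Folr1+/+ embryos, a log2 fold change of 0.84 ± 0.15 (adjusted p = 0.0033). It passed without each array in turn. Rab4a and Rab11a, small GTPases of fast and slow recycling, had 0.92 ± 0.22 and 0.59 ± 0.16, and Snx3, a sorting nexin, 0.54 ± 0.16. The call of Rab4a was lost without Folr1-/- replicate 1 (0.94) or 2 (0.91), that of Rab11a without either of them (0.49 and 0.69) or without Folr1+/+ replicate 2 (0.50) or 3 (0.58), and that of Snx3 without either of them (0.43 and 0.66) or without Folr1+/+ replicate 1 or 3 (0.49 each). The relatives of Clcn5 that were tested, Clcn3, Clcn4 and Clcn7, had 0.00, -0.31 and -0.27 and did not pass.

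On the side of the cargo, 8 of 14 tested ligand genes rose and 1 fell (median 0.91), but 4 of the 14 are also endoderm markers. Among the other 10 there were 5 calls, with the 1 that fell among them, and a median of 0.37. Beside these counts and those of the vitamin list below, 8.19% of all genes tested rose and 6.79% fell. Apoe, a lipoprotein component that megalin binds, had signals of 326 and 426 in Folr1-/- embryos and 40.5, 65.5 and 59.7 in Folr1+/+ embryos, a log2 fold change of 2.46 ± 0.21. The ligand gene that fell was Ptn, a growth factor gene, at -1.39 ± 0.18. In the list of vitamin carriers and the cobalamin path 3 of 12 tested genes rose and 0 fell (median 0.20). Of these, Ttr and Rbp4 encode the transport proteins of retinol and are also endoderm markers, at 2.48 ± 0.18 and 2.28 ± 0.15. The other was Abcd4, which exports cobalamin from lysosomes, with signals of 114 and 64.9 against 19.3, 17.6 and 24.2 and a log2 fold change of 1.498 ± 0.24, which was 0.84 with a pseudocount of 64. The Folr1+/+ signals of Abcd4 all lay under the filter limit of about 30.0. It was therefore tested only through its Folr1-/- signals, which fixed the direction of its difference. Tcn2 and Cd320, the blood carrier of cobalamin and its receptor, had 0.54 and 0.13 and did not pass, and Cblif, the gene of intrinsic factor, was too dim to test.

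**Figure D4:**
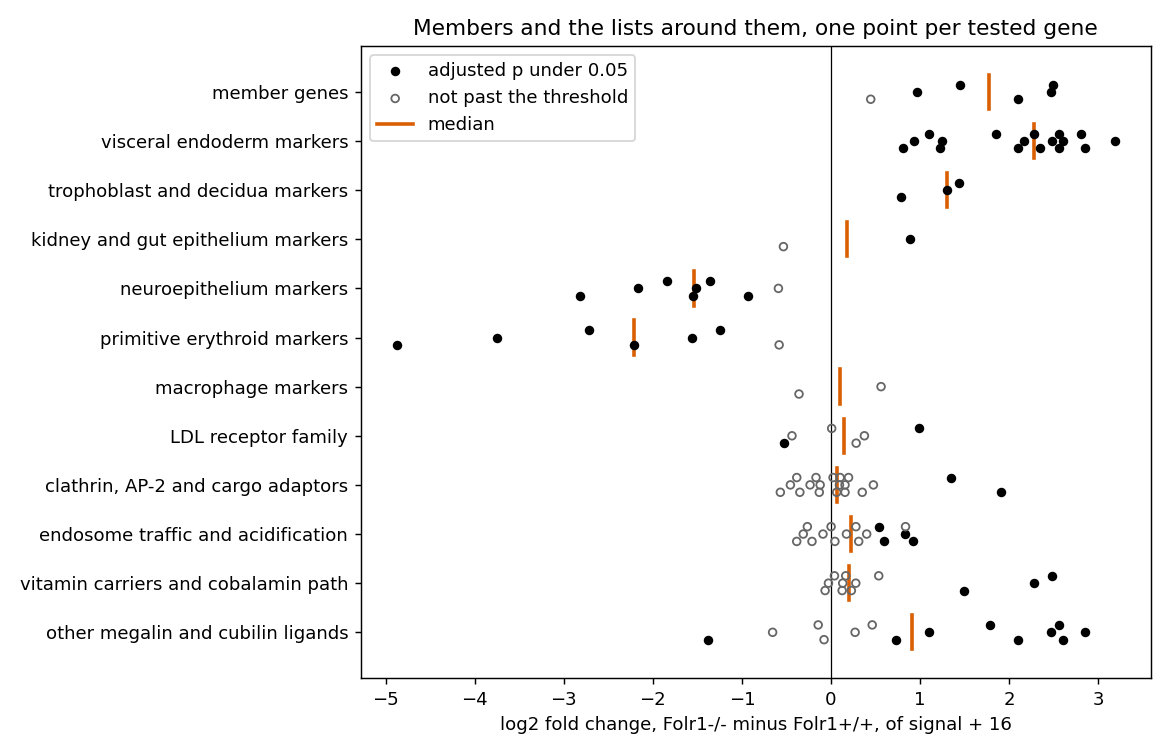
Log2 fold change (Folr1-/- minus Folr1+/+, of signal + 16) of each tested gene among the 6 members and in 11 lists, with filled points for an adjusted p under 0.05 and a bar at the median. The members' median of 1.77 lies between those of the trophoblast and decidua markers at 1.30 and the visceral endoderm markers at 2.28. The clathrin list has its median at 0.06 with Gipc2 and Myo6 to the right.

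The genes whose values over the 5 arrays were nearest to those of Cubn, by Euclidean distance between centred log2 profiles, were Ttr (0.30), the lysosomal protease gene Lgmn (0.31), the brush border peptidase gene Dpp4 (0.31), Rbp4 (0.32) and the X-linked homeobox gene Rhox5 (0.35). Lgmn averaged 423 ± 16.9 in Folr1-/- embryos (SD, n = 2) and 63.1 ± 17.4 in Folr1+/+ embryos (SD, n = 3), and Dpp4 296 ± 13.2 and 34.8 ± 6.14. Of the members Lrpap1 was nearest to Cubn, at 0.52, followed by Amn at 0.87, Dab2 at 1.14, Lrp2 at 1.65 and Clcn5 at 2.31. Nearest to Lrp2 were Bambi, a pseudoreceptor of BMP signals (0.18), Mme, a membrane peptidase (0.20), the transcription factor gene Creb3 (0.20), the glycine cleavage gene Gldc (0.21) and the chromatin remodeller gene Smarca1 (0.22), with Dab2 at 0.55 as the nearest member. These distances describe the same 5 arrays and carry no test.

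Genomic neighbours of the members were taken as up to 2 tested genes on each side. Of 23 neighbours found, 2 rose and 1 fell, with a median log2 fold change of 0.02. Over all genes tested 15% passed, made up of 8.19% higher and 6.79% lower. Around Cubn, the flanking genes Rsu1 and Trdmt1 had 0.20 ± 0.19 and -0.11 ± 0.18, and beside Amn Rcor1 and Tnfaip2 had -0.05 ± 0.24 and 0.45 ± 0.24. The neighbours that rose were Oxct1 near Dab2, a gene of ketone body use, at 1.09 ± 0.20, and Spc25 next to Lrp2, a kinetochore gene, at 0.53 ± 0.16, and Eif5 near Amn fell by 0.47 on the log2 scale. These neighbours were named because they were the only 3 calls and the genes next to the receptor's 2 subunits, after their values were seen.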

How the data were processed

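The authors deposited 1 intensity value for each probe set and array, not log-transformed. MAS5 is the tool named by the submitters' processing notes, which give no version. The deposited intensity values share a trimmed mean of 150 on every array (2% left out at each end), and this scaling was kept. Detection calls were not used. Of 22690 probe sets 64 were controls, 20380 of the others had 1 symbol, 691 had several and 1555 were not listed. A gene was tested if its mean log2(signal + 16) reached the 40th percentile of all genes, a signal of about 30.0, which 7436 genes did. A gene under this limit throughout 1 group could pass the filter only through the other group, which fixed the direction of its difference. Examples are Apoa2, Abcd4 and Prl8a2, which passed through their Folr1-/- signals. Zic1, Hes5, Pax6, Hba-x, Slc4a1, Klf1 and Alas2 passed through their Folr1+/+ signals. limma 3.58.1 in R 4.3.3 (lmFit, eBayes with an intensity trend) tested log2(signal + 16), with Benjamini-Hochberg adjustment over all genes, and a second fit did so over all probe sets. Fold changes are Folr1-/- minus Folr1+/+ on that scale and understate dim genes. The code was tested on simulated data.

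The members and lists were chosen with earlier results of these data known. Named are all members, per list at most 4 genes past the threshold with the largest change and no overlap (or else up to 2 with the smallest p), and the 5 nearest patterns of Cubn and Lrp2. Further list genes named beside their counts were chosen after their values were seen. Replicate numbers did not pair the arrays: deviations of same-numbered arrays correlated at 0.02 and -0.06. The number of arrays limits the precision. Alternatives covered the pseudocount, filter, scaling, variance model, array weights, replicate number, Actb 3'/5' ratio, probe set choice and each array left out. Genomic order and names come from RefSeq tables of GRCm38.p6.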

Additional observations from a re-analysis of the deposited data

How the results depend on the processing

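Cubn, Amn, Dab2 and Lrpap1 passed in all 16 alternatives, with log2 fold changes of 2.28 to 2.59, 1.94 to 2.91, 1.16 to 1.54 and 1.46 to 2.19. Lrp2 passed in 14 of 15 (0.66 to 1.13), could not be tested with the filter at the 60th percentile, and had 0.84 to 1.09 with each array left out. Clcn5 did not pass in 14 of 16, and passed with the mean of its probe sets (0.50) and with the replicate number as a block (0.65, adjusted p = 0.046), a block by which the arrays do not pair and in which Folr1+/+ replicate 3, with no partner, adds nothing to the difference; it had 0.17 to 0.65 with each array left out. The members called were 4 to 6, the member probe sets 8 to 12 and the list genes 32 to 50. The count of all genes called, 1114, was 369 to 1007 with each array left out, 747 with no filter, 899 with the block, 1311 when the Actb 3'/5' log2 ratio entered the model and 1376 with array weights, the highest of the 16 alternatives. The difference of Amn minus Cubn had no stable sign: -0.34 with a pseudocount of 64 and -0.51 to 0.56 with each array left out. That of Lrpap1 minus the endoderm markers turned to -0.15 with a pseudocount of 1 and -0.35 with the mean of probe sets. For these reversals the cause was not tested.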

Other observations

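Some genes of the kidney and gut list and of the ligand list were brighter in Folr1-/- embryos but fell under the filter because of their dim Folr1+/+ signals. They were noticed after their values were seen. Vil1, which encodes an actin-bundling protein of the microvilli where cubilin and megalin sit, had signals of 133 and 120.0 in Folr1-/- embryos and 3.32, 4.16 and 1.26 in Folr1+/+ embryos. Ambp, whose product yields the megalin ligand alpha-1-microglobulin, had 54.2 and 57.5 in Folr1-/- embryos and 0.974, 7.03 and 6.29 in Folr1+/+ embryos. Cdx1, a homeobox gene of the gut and tail bud, had 63.6 and 47.1 against 23.1, 4.31 and 7.14. In each the groups did not overlap. As these genes were picked after their values were seen, this carries no weight, and no test was made of them. Other genes of the kidney and gut list under the filter went the other way, also without overlap and without a test. Slc34a1 had 14.8 and 10.6 in Folr1-/- embryos against 21.1, 39.4 and 20.4, and Lct 4.88 and 7.47 against 13.5, 27.3 and 21.0. Umod had 15.2 or less on every array. Aqp2, a water channel gene, passed the filter with 26.9 and 16.3 in Folr1-/- embryos and 31.0, 63.0 and 26.2 in Folr1+/+ embryos, with overlap.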
